A study of Homo sapiens with 6 samples.

Results

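The genes described here encode the matrix metalloproteinases (MMP), their tissue inhibitors (TIMP) and 2 related families of metalloproteinases, ADAM and ADAMTS. They were taken by name: every non-control probe was a member if its gene name in the scanner files was MMP, TIMP, ADAM or ADAMTS followed by a number, with or without a final B. This gave 96 probes for 68 genes, of 50599 probes for 36337 names on the array. The 68 genes were 23 MMP, 4 TIMP, 22 ADAM and 19 ADAMTS genes. Expression was measured in 3 human cell lines established from oral squamous cell carcinoma (OSCC), HSC-3, KON and Ca9-22. Each line received either a control siRNA (siCtrl) or 1 siRNA against the long noncoding RNA DLEU1 (siDLEU1-2) by lipid transfection, and total RNA was taken after 72 h. Each of the 6 combinations was hybridised to 1 one-colour array, so there were 3 siCtrl and 3 siDLEU1-2 samples and the cell lines served as the replicates. The comparison asked how depletion of DLEU1 altered gene expression in OSCC cells.

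MMPs are zinc-dependent enzymes that cleave collagens and other components of the extracellular matrix, and most are secreted as inactive precursors. A smaller number stay anchored in the plasma membrane. TIMPs bind and block active MMPs. ADAM proteins are membrane-anchored and several of them shed the extracellular part of growth factors, cytokine precursors and adhesion molecules, whereas ADAMTS proteins are secreted and many cleave proteoglycans or process procollagen. In squamous carcinoma of the mouth MMPs are studied mainly for their part in the breakdown of basement membrane and stroma. The arrays measured RNA only, and neither protein nor enzyme activity.

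The targeted RNA was lower in every line. DLEU1 had a scaled signal of 263 with siCtrl and 15.3 with siDLEU1-2 (HSC-3), 446 and 35.9 (KON), and 294 and 27.2 (Ca9-22). Pairs of values are given in this order, siCtrl first, from here on. The scaled signal is the processed signal of a probe relative to the 75th percentile of its array, which was set to 100. The mean log2 fold change was -3.72 ± 0.34 (SD, n = 3 lines; limma adjusted p = 0.0227). Only 1 siRNA sequence against DLEU1 was hybridised, so effects of the loss of DLEU1 and other effects of that sequence cannot be told apart. Its antisense strand is shown because its seed (bases 2 to 8, in capitals) can pair with other transcripts.

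siDLEU1-2 antisense: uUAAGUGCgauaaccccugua

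The letters complementary to this seed, GCACTTA, were present in 138 of the 50599 probes in the orientation of the transcript and in 0 of the 96 metalloproteinase probes. The probes cover only a part of each transcript, and the rest was not searched.

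The cells carried the markers of their label. All 10 genes of a squamous epithelial list, keratins and p63 among them, had a probe above background in all 3 lines, and 9 of them had one above background on all 6 arrays. Some of these markers moved with the siRNA: CDH1 (E-cadherin) was 2.92 ± 0.21 higher (mean log2 fold change ± SD, n = 3 lines), while TP63, DSG3, KRT6A and SFN fell. Of 9 fibroblast markers only COL1A1 was above background on all 6 arrays, COL1A2, COL3A1, LUM, PDGFRA, PDGFRB and THY1 were above background on none, and the summed level of the list ranged from 96.6 to 380 with siCtrl and from 179 to 476 with siDLEU1-2. COL1A1 was higher in each line, by a mean log2 fold change of 1.45 ± 0.57 (limma adjusted p = 0.0423), the direction of the MMPs described below, whereas FAP went from 301 to 185 in HSC-3 and from 11.6 to 10.4 in KON. The part of these markers in the results was not tested. Of 5 leukocyte markers CD14 and CD68 were above background on all 6 arrays, and CD68 fell by 1.39 ± 0.30 on the log2 scale, while CD14 differed by 0.51 ± 0.08 (adjusted p = 0.0866) and was higher in each line. The summed level of the leukocyte list was 102 to 5136 with siCtrl and 112 to 6583 with siDLEU1-2, and nearly all of the upper values was CD14 in HSC-3. Of 4 endothelial markers none was above background on all 6 arrays, and their summed level was 17.4 to 43.1 with siCtrl and 28.6 to 80.6 with siDLEU1-2. In RNA from a whole culture, fewer cells of a type and less RNA per cell cannot be told apart.

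A probe was tested when, in every line, the siCtrl or the siDLEU1-2 array or both showed it well above background. Above and below background refer here to this mark of the scanner software. This left 28 of the 96 probes, for 24 of the 68 genes, and 25 of the 28 were above background on all 6 arrays. They covered 10 MMP, 3 TIMP, 8 ADAM and 3 ADAMTS genes. Another 24 genes had no probe above background on any array, among them MMP8, MMP16, MMP20, MMP21, MMP26 and MMP27. Of the 28 tested probes, 6 were higher after siDLEU1-2 at a limma adjusted p below 0.05, against 3.98% of all 19956 tested probes. These were the probes of MMP1, MMP11, MMP13, TIMP2 and ADAM17 and 1 of the 2 probes of MMP19. None was lower at that threshold, against 4.52% of all tested probes; at an unadjusted p below 0.05 limma gave 12 higher and 1 lower probe (MMP28), 13 of 28 in all, against 29.5% of all tested probes. Probes of MMP1, MMP11, MMP13, MMP15 and TIMP2 were over 2-fold higher in all 3 lines, 5 of 28 against 2.08% of all tested probes, and none was over 2-fold lower in all lines, against 2.08%. Without HSC-3 or without KON, limma called 0 metalloproteinase probes and no probe of any other gene. Without Ca9-22 it called 3 higher (MMP1, MMP9 and MMP13), against 127 of all 19956 tested probes. It also called 0 when all 96 probes were kept or when the arrays were not paired by line. In both settings it called no probe of any gene.

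**Figure D1:**
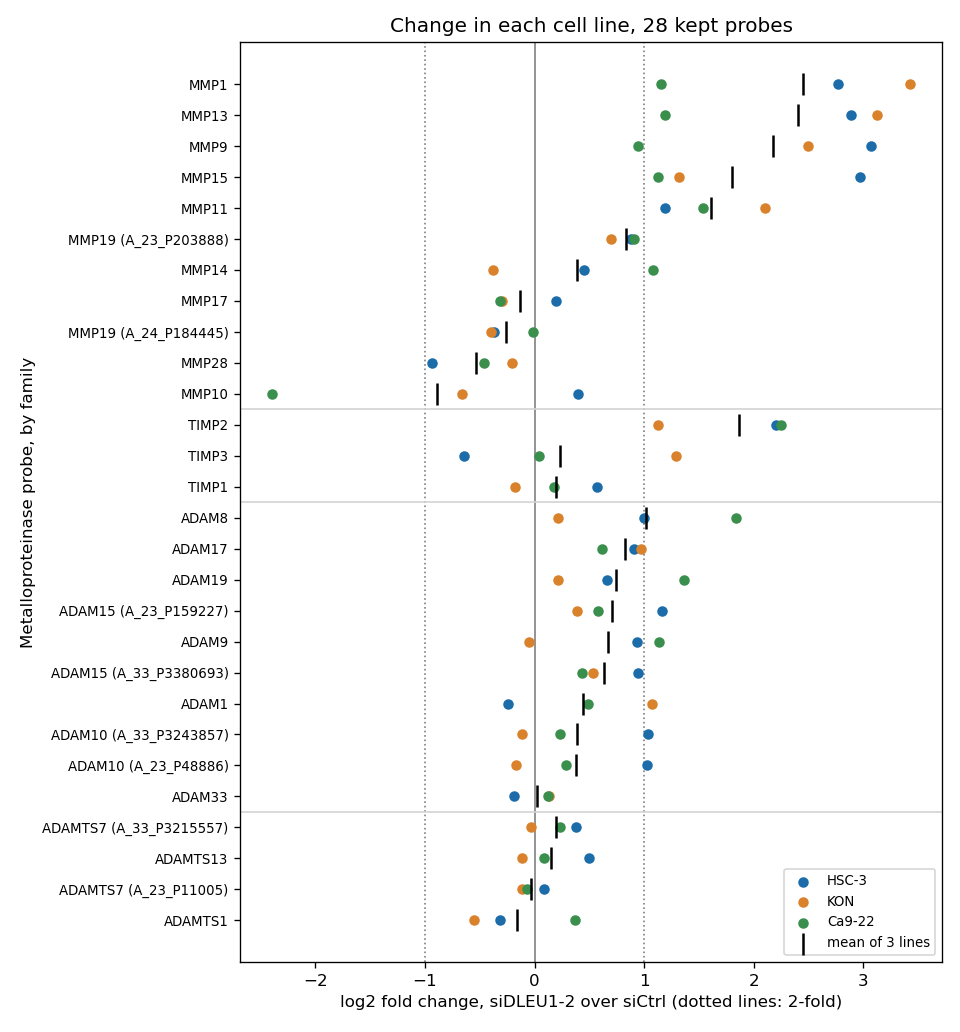
Change of each tested metalloproteinase probe after siDLEU1-2 in each cell line. The x axis is the log2 fold change over siCtrl, rows are probes ordered by family and mean, coloured points are the 3 cell lines and the black bar is their mean; the upper 6 MMP rows lie above 0 in every line, whereas MMP10 spans 0.40 to -2.39.

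The stretch of transcript behind each of these values is given by the probe itself. The first 30 of the 60 bases are shown for the 6 probes called higher, for the other MMP19 probe and for MMP9 and MMP15, which missed the threshold with mean changes above 3-fold. All are written 5′ to 3′ as on the array, with the positions of the whole probe in hg19.

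MMP1, chr11:102660697-102660756, minus strand: acatgtgcagtcactggtgtcaccctggat

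MMP13, chr11:102813773-102813832, minus strand: ctcagagacactgttgataaaaactcaggc

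MMP11, chr22:24126273-24126332, plus strand: ggccaaaaagttcacagtcaaatggggagg

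MMP19, probe called higher, chr12:56230436-56230495, minus strand: aatggtggagggagatgcctgggtcctgtt

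MMP19, other probe, chr12:56229422-56229481, minus strand: agagcccttcttcccatcaaaaaggtatca

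MMP9, chr20:44645121-44645180, plus strand: tggaggtgggctgggccctctcttctcacc

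MMP15, chr16:58080484-58080543, plus strand: tccttcctcttttccttcccaaagcaagca

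TIMP2, chr17:76849063-76849122, minus strand: tgctttgtatcattcttgagcaatcgctcg

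ADAM17, chr2:9630133-9630192, minus strand: gtcatgtgtttgaacttcctgcaggtaaac

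Among the tested secreted enzymes 2 interstitial collagenases had the largest mean changes. MMP1, which cleaves fibrillar collagens, had a scaled signal of 847 and 5765 (HSC-3), 63.9 and 686 (KON) and 3477 and 7723 (Ca9-22). It was higher in each line, by 6.80-fold in HSC-3 but 2.22-fold in Ca9-22, and the levels of the groups overlapped, the lines lying far apart. The mean log2 fold change was 2.45 ± 1.17 (SD, n = 3 lines; limma adjusted p = 0.0484), over the mean of 10 spots on each array. With quantile normalization it was 2.37 and MMP1 was not called (adjusted p = 0.0508). MMP13, a collagenase of cartilage and of invasive carcinoma, went from 16.1 to 120 in HSC-3, from 28.9 to 252 in KON and from 339 to 773 in Ca9-22. Its mean log2 fold change was 2.40 ± 1.06 (adjusted p = 0.0433), and as for MMP1 the change was smallest in Ca9-22. MMP8, the collagenase of neutrophils, was not above background on any array.

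MMP11, known as stromelysin-3, was low in all lines and rose in all. Its scaled signal was 15.6, 13.4 and 14.9 with siCtrl and 35.7, 57.4 and 43.2 with siDLEU1-2 in HSC-3, KON and Ca9-22. The groups did not overlap, and on average the log2 change was 1.61 ± 0.46 (adjusted p = 0.0305). After another background correction (normexp) the change of this dim probe was 0.77, with an adjusted p of 0.0337.

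MMP9, a gelatinase that degrades denatured collagen and basement membrane collagen, was 22.4 and 188 (HSC-3), 84.9 and 480 (KON) and 20.4 and 39.2 (Ca9-22). All 3 lines were higher after siDLEU1-2, Ca9-22 by just under 2-fold. The mean log2 fold change was 2.17 ± 1.10, and the adjusted p of 0.0533 missed the threshold. The other gelatinase, MMP2, was measured by a probe that was not well above background in Ca9-22. Its scaled signal was 24.9 and 16.7 in HSC-3 and 213 and 182 in KON, so neither line changed by 2-fold.

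MMP19 was covered by 2 probes that differed. The one at chr12:56230436-56230495 went from 37.0 to 68.2 in HSC-3, from 17.6 to 28.7 in KON and from 28.3 to 53.2 in Ca9-22, an average log2 change of 0.83 ± 0.11 (adjusted p = 0.0388). The other, at chr12:56229422-56229481, had an average log2 change of -0.26 ± 0.21 (adjusted p = 0.326), with signals of 7.62 to 19.5 close to the background limit. The file assigns both probes to the same transcript. With normexp the first probe gave 0.48 (adjusted p = 0.0549), and the mean of both probes gave 0.29 (adjusted p = 0.253), so MMP19 was not called as a gene. The other 5 genes called by a single probe were also called at the level of genes, against 3.88% of 15281 tested genes higher and 4.35% lower.

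The remaining tested secreted enzymes, MMP28 and MMP10, did not pass the test. MMP28, the epilysin of keratinocytes, was 196 and 103 (HSC-3), 63.4 and 54.9 (KON) and 76.4 and 55.4 (Ca9-22). It was lower in all 3 lines, with an average log2 change of -0.54 ± 0.37 (adjusted p = 0.150). MMP10, known as stromelysin-2, took different directions in the lines: it was 43.6 and 57.5 in HSC-3, 14.2 and 8.94 in KON, where the latter was not well above background, and 1232 and 234 in Ca9-22. The decrease in Ca9-22 was 5.26-fold, the only change of over 2-fold to a lower level among the 28 tested probes in any line. The mean log2 fold change over the lines was -0.89 ± 1.41 (adjusted p = 0.348), and -0.13 without Ca9-22.

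**Figure D2:**
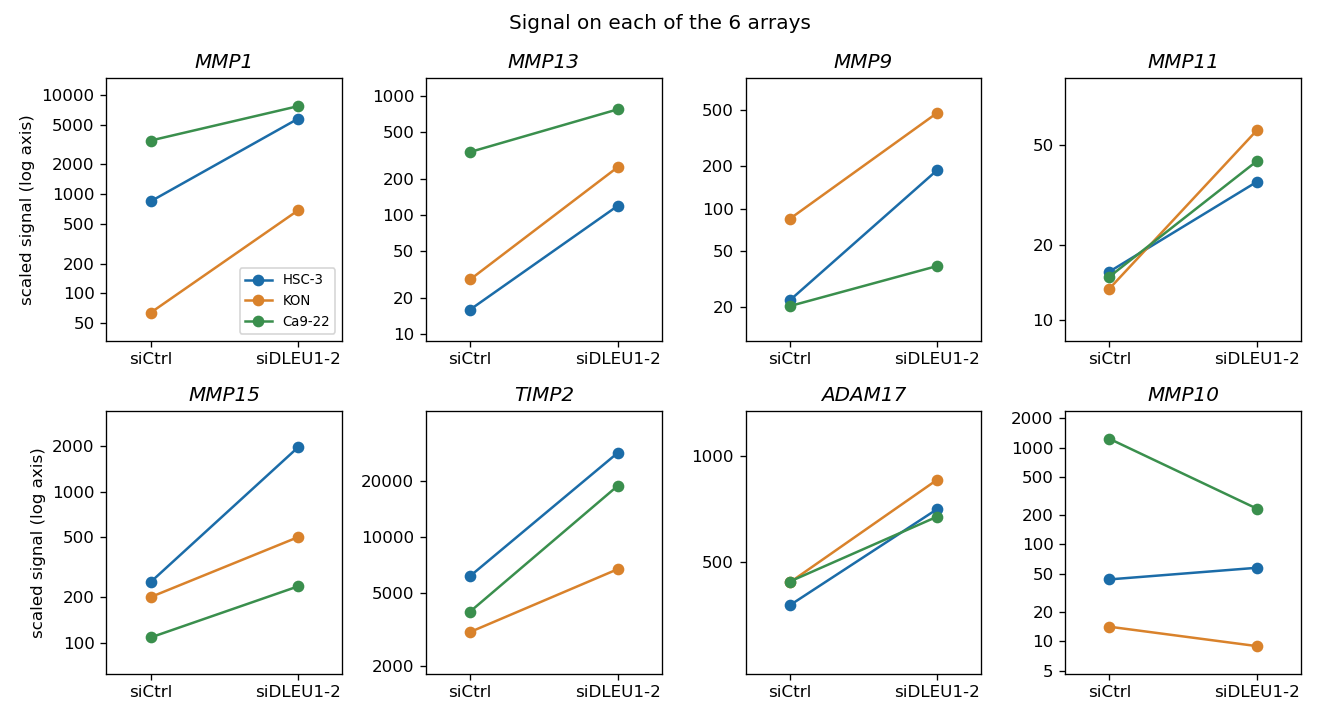
Scaled signal of 8 metalloproteinase genes on each of the 6 arrays (y axes are logarithmic and differ between panels; 100 is the 75th percentile of an array). Each line joins the siCtrl and siDLEU1-2 arrays of 1 cell line; all 3 lines go up for the first 7 genes, and MMP10 goes from 1232 to 234 in Ca9-22.

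Of the MMP genes, 9 lie close together on chromosome 11, where their probes span chr11:102394029-102813832. Beside MMP1, MMP10 and MMP13, this stretch holds MMP3, MMP7 and MMP12, which were above background in some lines only and were therefore not tested, and MMP8, MMP20 and MMP27, which were above background on no array. MMP7, known as matrilysin and made by epithelial cells, went from 12.7 to 363 in HSC-3, which is 28.6-fold. In KON it was not well above background with siCtrl and reached 61.5 with siDLEU1-2, at least 6.97-fold higher. Both values in Ca9-22 were below background.

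MMP12, an elastase, was not well above background with siCtrl in HSC-3 and reached 336 with siDLEU1-2, at least 36.1-fold higher. It went from 387 to 1681 in Ca9-22, which is 4.34-fold, and was below background on both KON arrays. MMP3, known as stromelysin-1, went from 516 to 2607 in HSC-3, which is 5.05-fold, and was at least 3.37-fold higher in Ca9-22, where siDLEU1-2 gave 40.4. It was below background on both KON arrays. Each of these 3 genes was therefore measured in 2 of the 3 lines and was over 3-fold higher in both. Genes that passed into this account only because a siDLEU1-2 array was bright had to be higher. MMP7 in KON, MMP12 in HSC-3 and MMP3 in Ca9-22 are such cases. So are MMP24 in KON and Ca9-22, ADAM6 in KON and ADAMTS6 in HSC-3, described below. A gene bright only on the siCtrl array of a line had to be lower there.

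**Figure D3:**
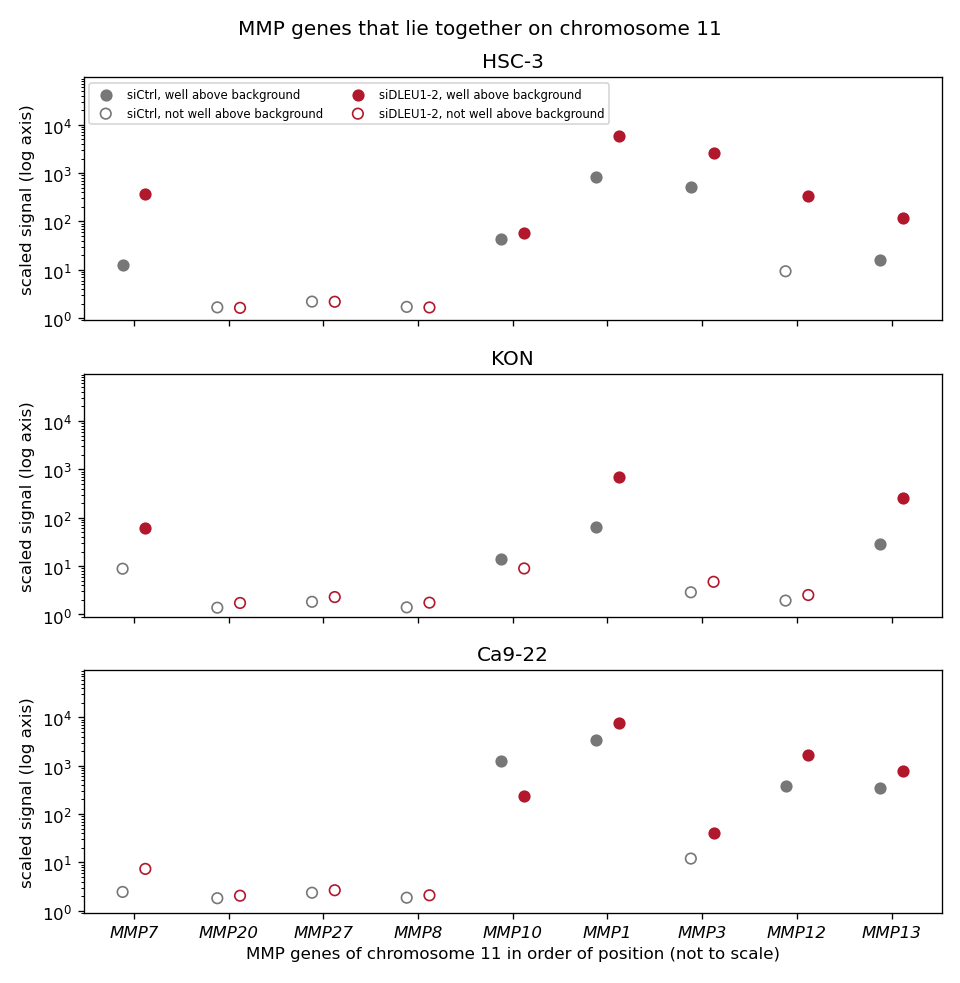
Scaled signal (logarithmic y axis) of the 9 MMP genes that neighbour each other on chromosome 11, in order of position, in each line. Grey circles are siCtrl and red circles siDLEU1-2 arrays, and open circles are not well above background; MMP10 in Ca9-22 drops from 1232 to 234 while MMP1, MMP3, MMP12 and MMP13 are higher there.

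A promoter sequence was at hand for 39 of the 68 genes (RefSeq, GRCh38.p14; 250 bases before to 50 bases after the start). The letters TGAGTCA, which the AP-1 factors FOS and JUN are known to bind, were searched on both strands. They were found in 1 of the 39, MMP7, and in 6.05% of 27305 promoters of the same length. Of the 6 genes with a probe called higher, MMP11 and ADAM17 were among the 39 searched. MMP1, MMP13, MMP19 and TIMP2 were not searched, nor were MMP3, MMP9 and MMP12. The MMP7 stretch is shown with these letters in capitals, the first of them 67 bases before the start.

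MMP7 promoter, chr11:102530761-102530860 (GRCh38.p14), minus strand: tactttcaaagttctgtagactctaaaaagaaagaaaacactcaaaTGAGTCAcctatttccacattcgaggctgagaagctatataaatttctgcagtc

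The match describes the sequence, and no binding was measured. All 14 genes of a list of AP-1, ETS and RUNX factors known at MMP promoters were tested, and 1 had a probe called higher and 1 a probe called lower, against 4.58% and 5.11% of all tested genes. All 5 tested probes of RUNX1 were higher in each line, and 1 was called, with an average log2 change of 1.64 ± 0.64 (adjusted p = 0.0404). The other RUNX1 averages were 0.37 to 0.94 (limma adjusted p = 0.0767 to 0.214). ETV5 fell by 2.30 ± 0.94 (adjusted p = 0.0388). No probe of a FOS or JUN family gene passed the threshold.

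The membrane-bound MMPs (MMP14, MMP15, MMP16, MMP17, MMP23B, MMP24 and MMP25) gave 3 tested probes and 0 calls by limma, with 1 of 3 at an unadjusted p below 0.05, against 29.5% of all tested probes. That was MMP15, a transmembrane enzyme that can activate the precursor of MMP2. Its scaled signal was 252 and 1971 (HSC-3), 200 and 500 (KON) and 108 and 236 (Ca9-22). MMP15 was over 2-fold higher in all lines, with a mean log2 fold change of 1.81 ± 1.01 and an adjusted p of 0.0642. It passed the threshold (adjusted p = 0.0452) when only probes above background on all 6 arrays were tested.

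MMP14, the main membrane-bound activator of MMP2, was 900 and 1232 (HSC-3), 560 and 431 (KON) and 279 and 591 (Ca9-22). It was higher in HSC-3 and Ca9-22 and lower in KON, and on average the log2 change was 0.39 ± 0.73 (adjusted p = 0.458). MMP17, which is attached to the membrane by a lipid anchor, ranged from 102 to 250 on the 6 arrays and had an average log2 change of -0.14 ± 0.29 (adjusted p = 0.641). In MMP24 every siCtrl value was below the background limit. It reached 34.3 in KON and 38.2 in Ca9-22 with siDLEU1-2, at least 4.93-fold and 4.15-fold higher, and stayed below background in HSC-3. Only siDLEU1-2 arrays were bright for MMP24, so it had to be higher in KON and Ca9-22. MMP25, with a lipid anchor like MMP17, had 2 probes of low signal. The first was 18.7 and 18.8 in HSC-3 and 12.7 and 20.0 in KON, and the second was above background only in KON with siCtrl, at 10.5 and at least 1.20-fold higher than with siDLEU1-2.

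Of the 8 tested probes of secreted MMPs, 4 were called higher, against 3.98% of all tested probes. The median log2 fold change of the 8 was 1.22. The median of the 3 membrane-bound probes was 0.39, and that of all tested probes was 0.0073. The membrane-bound median was that of MMP14, and was 0.04 without Ca9-22 and 0.77 without KON. By line the secreted median was 1.04 (HSC-3), 1.40 (KON) and 0.93 (Ca9-22), and the membrane-bound median was 0.45, -0.30 and 1.08. The membrane-bound values came from 3 genes and their order relative to the secreted ones turned in Ca9-22, so no difference between the 2 kinds of MMP can be read from them. With normexp the secreted median was 0.62. With no filter it was 0.16, below the membrane-bound median of 0.28.

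**Figure D4:**
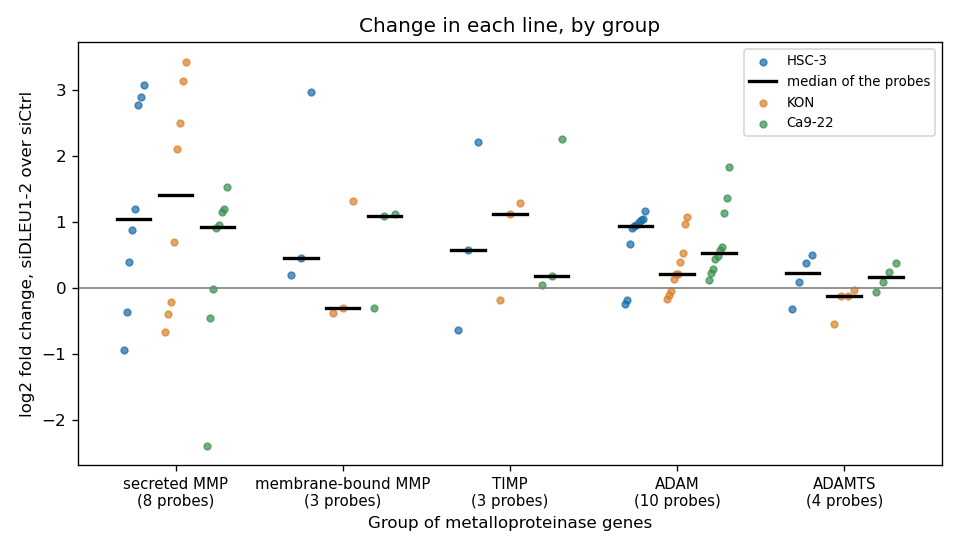
Change after siDLEU1-2 of the tested probes by group of genes and cell line. The y axis is the log2 fold change over siCtrl, points are probes coloured by line, and black bars are the medians of the probes in 1 line; the secreted MMP medians are 1.04, 1.40 and 0.93, and all ADAMTS points lie within 2-fold of siCtrl.

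Of the 3 tested TIMP genes, 1 passed the test, against 4.58% of all tested genes with a probe called higher. TIMP2, which inhibits MMPs and also takes part in the activation of MMP2 on the cell surface, rose from 6159 to 28429 in HSC-3, from 3070 to 6697 in KON and from 3960 to 18859 in Ca9-22. The groups did not overlap, and on average the log2 change was 1.86 ± 0.64 (adjusted p = 0.0326). TIMP1, a broad inhibitor of secreted MMPs, was 824 and 1223 (HSC-3), 635 and 563 (KON) and 641 and 728 (Ca9-22), an average log2 change of 0.19 ± 0.37 (adjusted p = 0.554). TIMP3, which binds to the matrix and also inhibits ADAM17, was 690 and 442 (HSC-3), 1361 and 3320 (KON) and 224 and 231 (Ca9-22). It was over 2-fold higher in KON and lower in HSC-3, and its mean of 0.23 ± 0.98 (adjusted p = 0.741) turned to -0.30 without KON. TIMP4 was below background in HSC-3, and was 158 and 122 in KON and 27.6 and 27.7 in Ca9-22.

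Of 12 other inhibitors of extracellular proteinases 8 were tested and 2 had a probe called higher, against 4.58% of all tested genes. These were SPINT1 and SPINT2, which encode Kunitz-type inhibitors of membrane serine proteinases in epithelia. SPINT1 was higher by an average log2 change of 1.15 ± 0.19 (adjusted p = 0.0297) and SPINT2 by 0.96 ± 0.18 (adjusted p = 0.0343). SPOCK2, a matrix proteoglycan, had 2 tested probes that differed: the dimmer one had the largest mean change of this list, 1.28 ± 0.81 (adjusted p = 0.0834), and the other changed by 0.11 ± 0.41 (adjusted p = 0.764). Of 15 activators and receptors of secreted proteinases 10 were tested and none passed the limma threshold in either direction, where 4.58% of all tested genes had a probe called higher and 5.11% one called lower. PLAUR, the receptor of the urokinase plasminogen activator, had an average log2 change of 1.71 ± 0.91 (adjusted p = 0.0600), and PCSK5, a proprotein convertase, one of 1.24 ± 0.61 (adjusted p = 0.0586).

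In the ADAM family 10 probes of 8 genes were tested and 1 probe was called higher, against 3.98% of all tested probes. This was ADAM17, the sheddase that releases tumour necrosis factor and ligands of the epidermal growth factor receptor. Its scaled signal was 378, 439 and 441 with siCtrl and 708, 858 and 674 with siDLEU1-2 in HSC-3, KON and Ca9-22. The groups did not overlap, although no line reached 2-fold, and on average the log2 change was 0.83 ± 0.19 (adjusted p = 0.0453). With arrays centred on their medians instead, it was 0.76 and ADAM17 was no longer called.

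ADAM10, the sheddase of Notch receptors and E-cadherin, was measured by 2 probes that moved alike. The first was 225 and 459 (HSC-3), 224 and 199 (KON) and 131 and 160 (Ca9-22), and both averaged 0.38 on the log2 scale (adjusted p = 0.393 and 0.383) and 0.06 without HSC-3. Both were over 2-fold higher in HSC-3 and slightly lower in KON. Of 9 partners of ADAM10 and ADAM17, all were tested, and 1 had a probe called higher and 1 a probe called lower. Over all tested genes these shares were 4.58% and 5.11%. TSPAN15, a tetraspanin that accompanies ADAM10, was higher by an average log2 change of 1.95 ± 0.32 (adjusted p = 0.0247), and TSPAN5, another such tetraspanin, fell by 1.52 ± 0.37 (adjusted p = 0.0284). The genes of the iRhom proteins that carry ADAM17 to the surface, RHBDF1 and RHBDF2, did not pass the threshold.

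ADAM8, found on leukocytes and on carcinoma cells, was 3489 and 6968 (HSC-3), 6434 and 7470 (KON) and 122 and 437 (Ca9-22). It was higher in all lines, with a mean log2 fold change of 1.02 ± 0.81 that missed the threshold (adjusted p = 0.129). The probes of ADAM15 (2 probes) and ADAM19 were also higher in all 3 lines, and no tested ADAM probe was lower in all of them. In all, 12 of the 28 metalloproteinase probes were higher in all 3 lines and 2 were lower, against 26.9% and 26.7% of all tested probes. The median log2 fold change of the ADAM probes was 0.65, and by line it was 0.94 (HSC-3), 0.22 (KON) and 0.53 (Ca9-22). Over the lines it was 0.38 for probes above background on at least 1 array and 0.18 with no filter.

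Some ADAM genes were above background in 1 line or 2 and had no tested probe. ADAM12 was below background in Ca9-22. One of its probes went from 13.6 to 59.5 in HSC-3 and from 149 to 178 in KON, while another went from 10.1 to 18.9 in HSC-3 and from 21.6 to 21.0 in KON. Its remaining probe with a signal was above background only in KON with siCtrl, at 16.8, and was at least 1.60-fold lower with siDLEU1-2. ADAM23, a neuronal adhesion protein without protease activity, was below background in HSC-3. Its first probe went from 183 to 84.1 in KON and from 118 to 59.7 in Ca9-22, and the other from 115 to 90.6 and from 53.7 to 30.2, lower in both lines on both probes. ADAM6, a pseudogene in the current annotation, was above background only in KON with siDLEU1-2, at 16.4 and at least 2.35-fold higher. ADAM11 was above background only in Ca9-22 with siCtrl (13.9, at least 1.35-fold lower with siDLEU1-2), and ADAM20 and ADAM21 only in KON with siCtrl (10.4 and 9.21, at least 1.19-fold and 1.06-fold lower). Where only the siCtrl or only the siDLEU1-2 array of a line was bright, the direction was fixed by that.

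The ADAMTS family had the median nearest to 0 of the 4 families. Its 4 tested probes, for ADAMTS1, ADAMTS7 and ADAMTS13, gave no call by limma and none at an unadjusted p below 0.05, where all tested probes gave 3.98% higher, 4.52% lower and 29.5% unadjusted, and no value in any line reached 2-fold. That median log2 fold change was 0.060, and was -0.05 without HSC-3 and 0.16 without KON. ADAMTS1, which cleaves versican and aggrecan, was 16.4 and 13.2 in HSC-3 and 120 and 82.0 in KON, and was higher by 0.37 on the log2 scale in Ca9-22. The probes of ADAMTS7 had mean log2 fold changes of -0.03 and 0.19. Of 11 measured genes of ADAMTS-like proteins and proteoglycan substrates 4 were tested, and limma called none; the largest mean log2 fold change was that of 1 of 2 probes of ADAMTSL5, 0.59 ± 0.34 (adjusted p = 0.117), the other being at -0.04 ± 0.19 (adjusted p = 0.887). ADAMTSL4 followed with 0.45 ± 0.44 (adjusted p = 0.235).

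A few ADAMTS genes were above background in 1 line or 2. ADAMTS9 was 65.1 in Ca9-22 with siCtrl and not well above background with siDLEU1-2, at least 6.36-fold lower, and was below background in the other lines. ADAMTS6 had 2 probes that were both higher in Ca9-22, from 61.9 to 154 and from 58.5 to 118, and both crossed the background limit in HSC-3 (at least 1.78-fold and 1.47-fold higher). ADAMTS17 was above background only in HSC-3 with siCtrl (14.4, at least 1.74-fold lower), and ADAMTS4 only in Ca9-22, where it was 26.7 and 27.9. As for the ADAM genes, a direction given as a bound was fixed by which array was bright.

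Counted in each line, 9 (HSC-3), 8 (KON) and 9 (Ca9-22) of the 28 metalloproteinase probes were over 2-fold higher by their measured values, against 7.53%, 7.3% and 6.56% of all tested probes. Of the 9 in Ca9-22, ADAM9 was not well above background with siCtrl and is only shown to be at least 1.74-fold higher. None was over 2-fold lower in HSC-3 or KON and 1 was in Ca9-22, against 6.68%, 7.29% and 6.46%. The MMP median was 0.88, 0.70 and 0.94 in HSC-3, KON and Ca9-22, and the ADAMTS median was 0.23, -0.12 and 0.16. Over the lines the MMP median was 0.83 (0.48 with normexp, 1.61 for probes above background on all 6 arrays and 0.17 with no filter), with 4 of 11 probes called higher, and the TIMP median was 0.23, with 1 of 3 called higher. Of all tested probes, limma called 3.98% higher. The TIMP median rested on 3 genes: it was 0.57 (HSC-3), 1.13 (KON) and 0.18 (Ca9-22), and over the lines it was 0.67 without HSC-3 and 0.38 without KON.

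Between lines, 18 of the 28 probes passed the limma F test at an adjusted p below 0.05, against 53.8% of all tested probes, with 2 arrays in each line. The count was 10 without HSC-3 and 7 with no siRNA term. Of these, 9 were among the 11 MMP probes, 2 among the 3 TIMP probes, 5 among the 10 ADAM probes and 2 among the 4 ADAMTS probes. The widest range of line means belonged to ADAM19, which was 26.1 (HSC-3), 1925 (KON) and 229 (Ca9-22) with siCtrl, a range of line means of 5.98 on the log2 scale over both siRNAs. MMP10 ranged over 5.58 with its highest level in Ca9-22, ADAMTS13, the protease of von Willebrand factor, over 5.14 with its highest level in Ca9-22 (449 against 74.3 in HSC-3 and 13.7 in KON), ADAM8 over 4.91 with its lowest level in Ca9-22, and MMP1 over 4.63 with its lowest level in KON. At the other end MMP11 and ADAM17 had ranges of 0.23 and 0.25, and their adjusted p for line was 0.731 and 0.485.

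Each line had its own set of abundant and scarce metalloproteinase RNAs with siCtrl. In Ca9-22 the chromosome 11 genes MMP1, MMP10, MMP12 and MMP13 were each at the highest of their 3 siCtrl levels. In KON this held for MMP9, TIMP3, ADAM8, ADAM19 and ADAMTS1. In HSC-3 it held for MMP3, MMP14, MMP15, MMP28 and TIMP2.

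The change was then set beside the siCtrl level, which enters both values. MMP1 had its lowest siCtrl level and its largest change in KON, and its highest siCtrl level and smallest change in Ca9-22. MMP9 had its highest siCtrl level in KON but its largest change in HSC-3, and MMP15 had both its highest siCtrl level and its largest change in HSC-3. In 6 of the 28 probes the line with the lowest siCtrl signal was the line with the largest log2 fold change, against 38.6% of all tested probes. The range over lines was narrower after siDLEU1-2 than after siCtrl in 8 of 28 probes, against 41.8%. MMP1, with a range of 5.77 on the log2 scale with siCtrl and 3.49 with siDLEU1-2, and MMP13, with 4.39 and 2.69, were among those that narrowed, and MMP9 widened from 2.06 to 3.61.

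**Figure D5:**
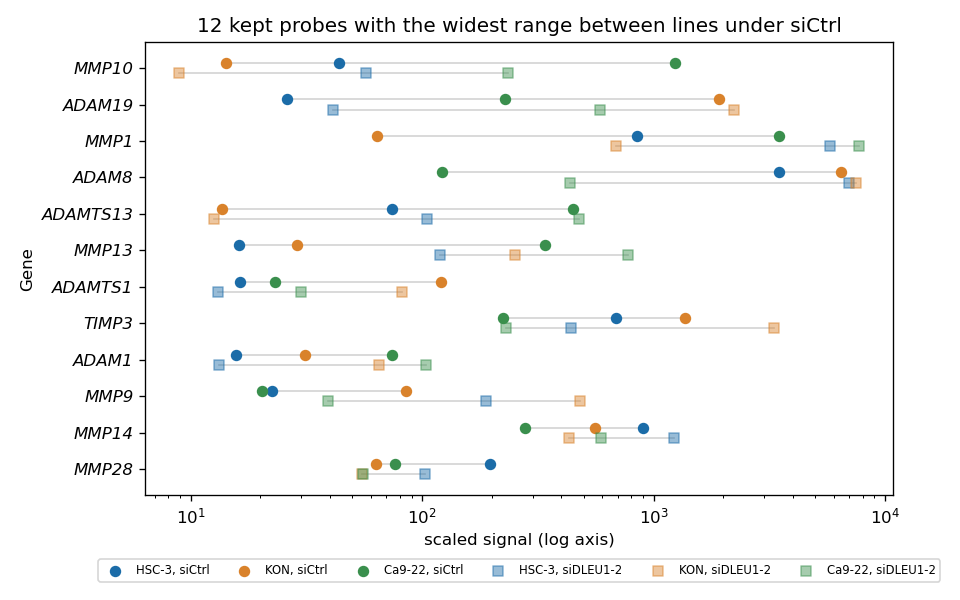
Scaled signal (logarithmic x axis) in the 3 cell lines for the 12 tested probes with the widest range with siCtrl. Circles are siCtrl and squares siDLEU1-2 arrays, coloured by line, and each grey bar spans the lines; the bar of MMP1 is shorter after siDLEU1-2 and those of TIMP3 and MMP9 are longer.

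For MMP1 and MMP13 the line that was highest with siCtrl stayed highest with siDLEU1-2, and all 3 lines kept their places. For MMP9 HSC-3 and Ca9-22 were close with siCtrl (22.4 and 20.4) and apart with siDLEU1-2 (188 and 39.2), with KON highest both times.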

How the data were processed

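The authors labelled 100 ng of total RNA with Cy3, hybridised it to Agilent arrays (design build hg19, per the file headers) and extracted the spots with Agilent Feature Extraction (version 10.7 in the submitters' processing notes, 10.7.3.1 in the headers). The deposited scanner files held processed intensity, already background-corrected. The deposited series table held the same intensity values within 0.497% and was an alternative. The authors also named GeneSpring GX, whose settings are not given in the sources used here.

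Samples were grouped by their GEO labels. Spots marked as outliers and control spots were left out, spots of a probe were averaged (Python 3.11.15, pandas 2.3.3), and log2 intensity was centred on each array's 75th percentile, a signal of 200 to 257. Of all probes, 43.0 to 45.7% were well above background on an array, and all arrays lay on 1 slide. limma 3.58.1 (R 4.3.3) was fitted over 19956 probes with cell line as the block, and p-values were adjusted by Benjamini-Hochberg over all of them. Line pairs deviated together (correlations of 0.828, 0.813 and 0.822). The number of arrays limits the precision, and nothing states whether the arrays came from separate cultures beyond the lines. The p-values then measure only the spread between these samples. A fold against a value not well above background is a bound: the bright value over the dim value or the lowest signal well above background on the dim array, whichever is higher. The fits were tested on simulated data.

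Member genes, groups and lists were chosen with earlier results of these data known. Genes were named if they were MMP or TIMP genes with a tested probe, ADAM or ADAMTS genes called by limma or over 2-fold in 1 direction in all lines, ADAM10, ADAM17, the 5 tested probes with the widest range of line means, and members detected without a tested probe that changed over 2-fold in a line. Of the lists, genes called by limma and the 2 with the largest mean change were named. The grouping of the chromosome 11 genes, and the other genes named beside these, were chosen after their values were seen. Gene names follow the files. Of the 68 names, 67 are RefSeq symbols, and ADAM1 is a synonym of ADAM1A. Alternatives were other scalings, normexp, other filters on dim probes, the series table, 3-fold, each line left out, no block and the methods' t-test.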

Additional observations from a re-analysis of the deposited data

Results flagged for a closer look

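Of the 28 tested probes, 14 went in opposite directions in different lines, and 7 of these had measured values over 2-fold apart in at least 1 line. Over all tested probes the shares were 46.4% and 6.85%. With 1 array per line and siRNA, the difference between lines was not tested for any of them. The value given for each is the highest minus the lowest log2 fold change of the 3 lines. MMP10 had a range of 2.79, from 0.40 in HSC-3 to -2.39 in Ca9-22. TIMP3 had a range of 1.93, from -0.64 in HSC-3 to 1.29 in KON. MMP14 had a range of 1.46, with KON lower and Ca9-22 higher. ADAM1 had a range of 1.31, with HSC-3 lower and KON higher. The 2 probes of ADAM10 had ranges of 1.19 and 1.15, with KON the lower line. ADAM9 had a measured range of 1.19, but its siCtrl value in Ca9-22 was not well above background, so only a change of at least 1.74-fold is shown there and none over 2-fold. Groups of 3 samples were not screened for outlying samples.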

How the results depend on the processing

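The 6 calls among the 28 tested probes became 5 to 8 under the other scalings, normexp, the series table, a floor for dim values and a filter on all 6 arrays, and 0 were called lower under any setting. The count was 0 with probes above background on at least 1 array or with no filter, where limma called no probe of any gene and 15 of 55 and 19 of 96 metalloproteinase probes had an unadjusted p below 0.05, against 19.8% and 13.5% of all probes. Leaving out 1 line gave 0 to 3, the 3 being without Ca9-22, where 127 of all 19956 probes were called higher. Without HSC-3 or KON no probe of any gene was. In the main setting 795 of 19956 were called higher, against 639 with median centring (5 metalloproteinase probes) and 1131 with normexp (6). With the filter on all 6 arrays it was 991 of 18094 (8). Without the replicate block that pairs the arrays of a line, limma called no probe of any gene. Of the 28 metalloproteinase probes, 3 had an unadjusted p below 0.05, against 6.8% of all probes. The t-test of the methods called no probe of any gene either, with 2 of 28 unadjusted, against 6.88%. The 5 probes over 2-fold higher in all lines became 3 with normexp and 0 at 3-fold. The 18 calls between lines became 10 to 15 without 1 line and 7 with no siRNA term. The MMP median of 0.83 was 0.48 with normexp, 1.61 with probes above background on all 6 arrays and 0.17 with no filter. The secreted median of 1.22 was 0.62, 1.89 and 0.16 under these, and 1.61 with at least 1 array, and the ADAM median of 0.65 was 0.18 with no filter. TIMP3 reversed from 0.23 to -0.30 without KON, and was 0.32 and 0.67 without Ca9-22 and HSC-3. MMP9 and MMP15 passed the test with the filter on all 6 arrays, and MMP9 also with the floor and without Ca9-22 (log2 fold change 2.78, adjusted p = 0.0467). Fewer residual degrees of freedom without a line, and more probes tested under the wider filters, are part of these settings; the cause of each change was not tested. A block for the slide could not be fitted, since there was 1 slide. Signals near the background limit, 6.96 to 10.2 in scaled signal, bound what dim probes such as those of MMP11, MMP19 and MMP7 can show.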
